A study of Mus musculus with 18 samples.

Results

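Activated satellite cells of pregnant mice were compared with activated satellite cells of virgin mice in 12 RNA sequencing libraries, 6 of each group, out of 18 libraries in the study. All libraries labelled as activated were taken, and every gene with a numeric value in the deposited table entered, which gave 10792 genes of 47729 listed. The animals were C57BL/6 mice aged 8.5 to 9 months, pregnant in the first group and virgin in the second, and no transgene or other genotype is named. In both groups the hindlimb muscles (tibialis anterior, gastrocnemius and quadriceps) had been pierced repeatedly with a 23-gauge needle. Cells were sorted as VCAM1+ and CD31-, CD45- and Sca1-, and all 12 libraries were made with the same poly-A kit (TruSeq RNA). The other 6 libraries held cells of non-injured muscle, 3 from pregnant and 3 from virgin mice, and were made with another kit, from total RNA depleted of ribosomal RNA. The stage of pregnancy, the time after injury and whether each library is a separate animal are not given in the sources used here, so p-values measure the spread between libraries, which may be technical.

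Satellite cells are the stem cells of skeletal muscle. They lie between the muscle fibre and its basement membrane, carry the transcription factor Pax7, and after injury leave quiescence, express Myod1, divide, and either fuse into fibres or return to the niche. They both read and write the matrix around them, and signals from that niche (Notch ligands, growth factors, cytokines and hormones of the circulation) are known to shift the balance between division, differentiation and self-renewal.

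The 12 libraries held 14043324 to 19904594 counts in pregnant mice and 15144397 to 20500462 in virgin mice. Libraries correlated across genes at Pearson r = 0.975 to 0.991 within pregnant mice, 0.977 to 0.994 within virgin mice and 0.952 to 0.985 between them. Along principal component 1, with 36.5% of the variance, the groups separated, with all 6 pregnant libraries on its positive and all 6 virgin libraries on its negative side. Pregnant library 4 and virgin library 1 had the lowest mean correlation with their own group, 0.979 and 0.981. Many results, though not all, are also given without them. The satellite cell genes Pax7, Myf5, Vcam1 and Myod1 were detected in every library. Ptprc (CD45) and Ly6a (Sca1), which code for proteins used to gate cells out, had no value in the table, as had 36937 genes in all, so nothing on their level can be read from that. Pecam1, which codes for the gated protein CD31, still had 161 to 1310 normalized counts in pregnant mice and 319.7 to 639.3 in virgin mice. In bulk samples such as these, a change in the number of cells of one type and a change of RNA per cell cannot be told apart.

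Of 10499 genes tested, 2883 (27.5%) differed between the groups, 1473 higher (14%) and 1410 lower (13.4%) in pregnant mice, by limma on log2(normalized count + 1) with Benjamini-Hochberg adjustment at 0.05. A further measure that does not depend on the model gave 1257 genes (12%) whose 6 libraries of one group all lay above the 6 of the other, 631 of them higher and 626 lower in pregnant mice. The changes upward were the larger ones. The median log2 change was 0.46 among genes called higher and -0.32 among genes called lower, and 170 genes rose and 21 fell by 2-fold or more. Over all genes tested the median log2 change was -0.01. Counts of called genes in the lists below are to be read against the 14% higher and 13.4% lower of all genes. The authors' deposited table called 1031 of the genes tested, 758 higher and 273 lower, and 1014 of these (98.4%) were also called here, all in the same direction, which is 35.2% of the calls made here. Values below are normalized counts per library, given as the lowest, median and highest of the 6 libraries of a group; log2 changes are pregnant minus virgin with the standard error (SE) of the fit.

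**Figure D1:**
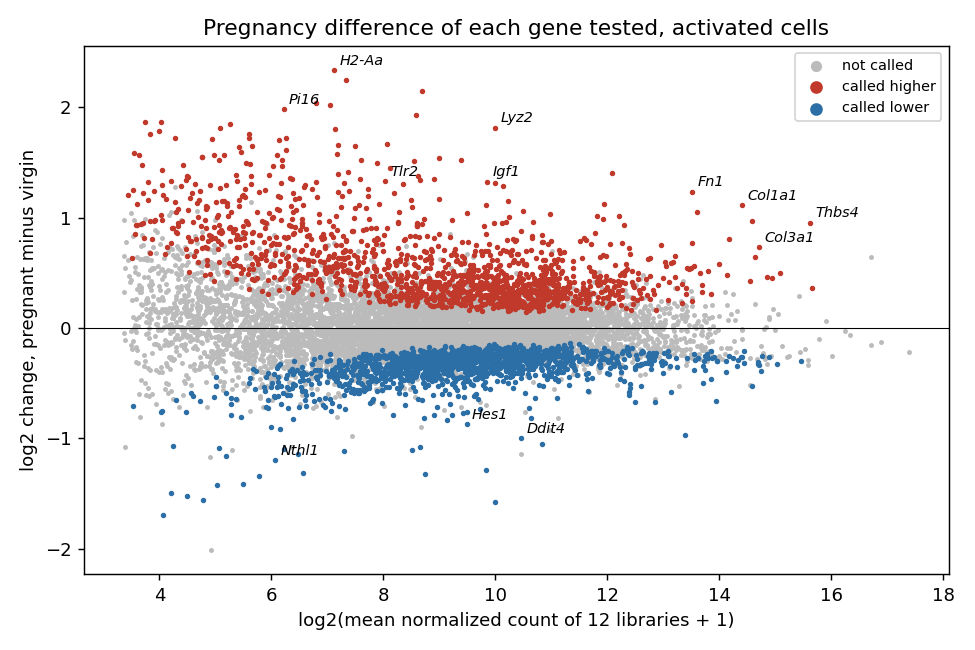
Log2 change (pregnant minus virgin) of the 10499 genes tested against log2 of the mean normalized count of the 12 libraries plus 1. Red and blue points passed the test as higher (1473) and lower (1410) in pregnant mice and grey points did not; the red points reach further from 0 than the blue ones.

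Igf1, which codes for insulin-like growth factor 1, a secreted growth factor that drives satellite cell division and muscle growth, was among the most clearly separated genes of the experiment. Igf1 (ENSMUSG00000020053, GRCm38 chromosome 10, 87858265 to 87937042, + strand) had 1116, 1327 and 1604 normalized counts in pregnant mice and 469, 511.8 and 623.5 in virgin mice. All 6 pregnant libraries lay far above all 6 virgin libraries, a 2.51-fold difference (log2 change 1.32 ± 0.09 SE, limma adjusted p = 3.59e-06; two-sided exact permutation p = 0.00216, the smallest that 924 assignments allow). Leaving out each library in turn kept the log2 change between 1.27 and 1.37. Of the 14 tested genes of the insulin-like growth factor list, 3 rose and 1 fell (median log2 change 0.12). Over all genes 14% rose and 13.4% fell. Igfbp5, a binding protein for these factors that muscle cells secrete, rose by 0.58 ± 0.15 (adjusted p = 0.0152), and Igfbp6, which prefers Igf2, rose by 0.74 ± 0.20 (adjusted p = 0.0172). Igf2 itself was not called, at 3526, 5099 and 7716 normalized counts in pregnant mice and 4499, 5267 and 5785 in virgin mice (log2 change 0.04 ± 0.16, adjusted p = 0.863), and the receptor gene Igf1r had a log2 change of 0.08, not called.

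Of 9 tested genes of the growth hormone and prolactin pathway 2 rose, Igf1 itself and Jak2, and 1 fell (median 0.07). The shares over all genes were 14% and 13.4%. Jak2, the kinase that both receptors use, had 1206, 1282 and 1351 normalized counts in pregnant mice and 787.5, 969.6 and 1110 in virgin mice, with no overlap (log2 change 0.44 ± 0.08, adjusted p = 0.00226). Ghr, the growth hormone receptor, had a log2 change of 0.10 ± 0.09 (adjusted p = 0.464), and the prolactin receptor gene Prlr had no value in the table. Esr1, the oestrogen receptor alpha, had 1747, 2171 and 2933 normalized counts in pregnant mice and 1265, 1844 and 2095 in virgin mice (log2 change 0.36 ± 0.15), with groups that overlapped, and was not called (adjusted p = 0.0822). Of 15 genes of the oestrogen and progesterone list 2 rose and 3 fell, against 14% and 13.4% of all genes, and 1 fell without pregnant library 4. Nrip1, a corepressor of nuclear receptors, was the clearest rise among them (log2 change 0.41 ± 0.09, adjusted p = 0.00505).

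Imprinted genes include several that set growth before birth. Of 15 tested, 5 rose and 1 fell (median 0.17), against 14% and 13.4% of all genes. Without pregnant library 4 and virgin library 1 together, 4 rose and 1 fell (median -0.02). Plagl1, a transcription factor expressed from the paternal allele, rose most: 1043, 1410 and 1951 normalized counts in pregnant mice against 473.8, 567 and 697.2 in virgin mice, with no overlap (log2 change 1.32 ± 0.13, adjusted p = 6.87e-05). Dlk1, a membrane protein related to Notch ligands, rose by 0.80 ± 0.19 (adjusted p = 0.00924) and Peg3 by 0.54 ± 0.14 (adjusted p = 0.0155), while Ndn fell by 0.47 ± 0.08 (adjusted p = 0.00205). H19 had no value in the table.

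**Figure D2:**
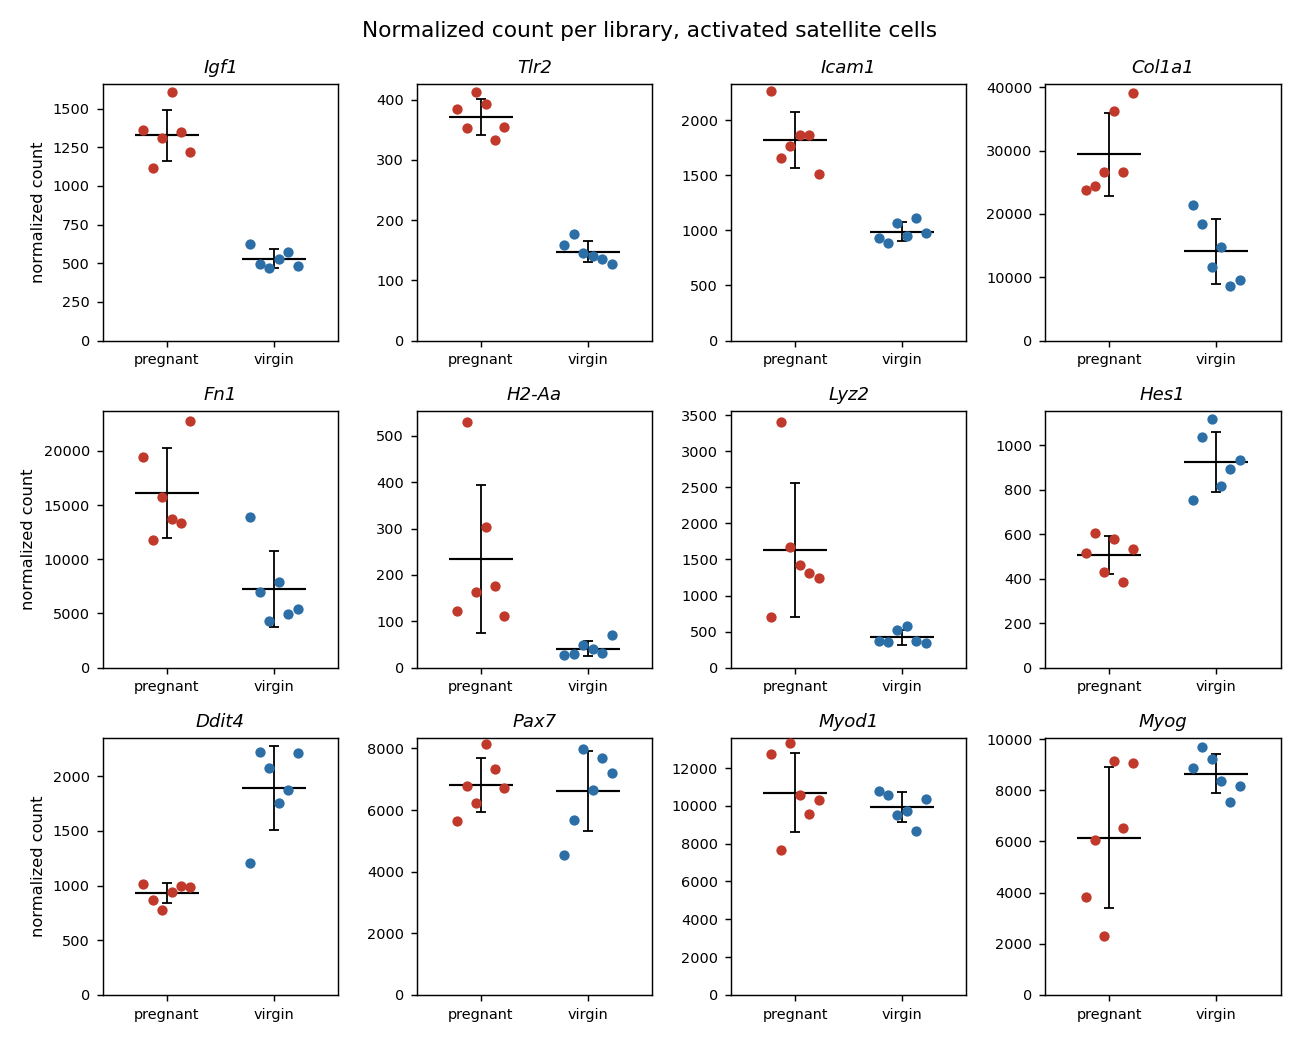
Normalized counts of 12 genes in each activated library, pregnant mice (red) left of virgin mice (blue). Points are libraries, the long bar is the group mean and the error bar 1 SD (n = 6 each). Igf1, Tlr2, Icam1, Col1a1, H2-Aa and Lyz2 are separated upward and Hes1 and Ddit4 downward, whereas Pax7, Myod1 and Myog overlap.

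By number, the fibrillar collagen list gave more rises than any other list, while all tested genes of the smaller myeloid and class II lists rose. Of 23 tested genes for fibrillar collagens and the enzymes that process and crosslink them, 18 rose and none fell (median log2 change 0.67, against -0.01 over all genes). Col1a1, the alpha 1 chain of type I collagen (ENSMUSG00000001506, chromosome 11, 94936224 to 94953042, + strand), had 23740, 26560 and 39070 normalized counts in pregnant mice and 8694, 13170 and 21450 in virgin mice. The groups did not overlap, and the difference was 2.16-fold (log2 change 1.11 ± 0.21, adjusted p = 0.00349). Col3a1, the collagen of loose connective tissue, separated without overlap, at 31100, 33310 and 36950 in pregnant mice and 16320, 19640 and 24290 in virgin mice (log2 change 0.73 ± 0.10, adjusted p = 0.000387). Col11a1, a minor chain that nucleates fibrils, rose 2.87-fold (log2 change 1.52 ± 0.17, adjusted p = 0.000173). Col12a1, which links fibrils, rose 2.02-fold, with 3603, 4844 and 5655 in pregnant mice against 1924, 2331 and 3003 in virgin mice.

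Some of the processing enzymes were among the rises, while the lysyl oxidase genes Lox and Loxl1 were not called (log2 changes 0.48 and -0.06, adjusted p = 0.0682 and 0.627). Loxl2, a lysyl oxidase that crosslinks collagen, had 787.7, 971.6 and 1088 normalized counts in pregnant mice and 411.6, 466.1 and 540.8 in virgin mice, with no overlap (log2 change 1.04 ± 0.08, adjusted p = 1.05e-05). Bmp1, the protease that trims procollagen, rose by 0.69 ± 0.08 (adjusted p = 0.000173). Col16a1, a fibril-associated collagen outside the list and picked after its values were seen, shared the smallest adjusted p of the experiment, at 1274, 1473 and 1639 in pregnant mice and 712.1, 755.8 and 799.3 in virgin mice.

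Basement membrane and microfibril genes, whose products the satellite cell rests on, gave 12 rises and no fall among 16 tested (median 0.49). Without pregnant library 4, or with the trend of each library with gene span taken out, 11 rose and 1 fell. The type VI collagen chains, a component of the satellite cell niche, rose together. Col6a1 had 8715, 9705 and 11880 normalized counts in pregnant mice and 5338, 5902 and 6516 in virgin mice (log2 change 0.75 ± 0.09, adjusted p = 0.000173). Col6a2 rose by 0.94 ± 0.11 (adjusted p = 0.000213) and Col6a3 by 1.12 ± 0.17 (adjusted p = 0.000857), both without overlap. Nid1, which joins laminin to collagen, rose by 0.83 ± 0.12 and the laminin chain gene Lama4 by 0.85 ± 0.12. Lama2, the laminin chain of mature muscle, rose by 0.48 ± 0.12 with groups that overlapped (adjusted p = 0.0115).

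The transitional matrix that forms after injury moved in part: 6 of 14 genes rose and none fell (median 0.29). Fn1, fibronectin, had 11780, 14730 and 22740 normalized counts in pregnant mice and 4303, 6184 and 13910 in virgin mice. The highest virgin value was that of library 1, the only one inside the pregnant range, and the change was 2.35-fold (log2 change 1.24 ± 0.25, adjusted p = 0.00439) with it and 1.45 on the log2 scale without it. Postn, periostin, rose by 1.15 ± 0.31 (adjusted p = 0.0178). Thbs1 rose by 0.66 ± 0.15 and Tgfbi by 0.49 ± 0.11. Tnc, tenascin C, was not called, at 4020, 6693 and 8234 in pregnant mice and 4654, 5213 and 10080 in virgin mice (log2 change 0.12 ± 0.20, adjusted p = 0.668). The lowest pregnant value of Tnc was that of library 4, and without pregnant library 4 and virgin library 1 together its log2 change was 0.41 (adjusted p = 0.0179). Spp1, osteopontin, had a log2 change of -0.25 ± 0.17 (adjusted p = 0.277).

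Matrix proteases and their inhibitors gave 9 rises and no fall among 20 tested (median 0.32). Mmp14, a membrane-bound protease, had 2485, 2822 and 3073 normalized counts in pregnant mice and 1739, 1840 and 1948 in virgin mice (log2 change 0.61 ± 0.06, adjusted p = 6.83e-05). Mmp2, the gelatinase that Mmp14 activates, rose by 0.77 ± 0.11 (adjusted p = 0.000711) and Ctsk, cathepsin K, by 1.05 ± 0.16 (adjusted p = 0.000761), all without overlap. Adhesion receptors gave 9 rises and no fall among 25 (median 0.24). Without pregnant library 4 and virgin library 1 together they gave 9 rises and 1 fall (median 0.1). Itga2, a collagen receptor subunit, had 37.04, 48.57 and 75.06 in pregnant mice and 20.17, 26.39 and 33.3 in virgin mice (log2 change 0.90 ± 0.17, adjusted p = 0.00368). Cdh11, a cadherin of mesenchymal cells, rose by 0.93 ± 0.16. Vcam1, the receptor used in the sort, had 11840, 15490 and 17900 in pregnant mice and 9302, 11820 and 13320 in virgin mice. That rise (log2 change 0.39 ± 0.12, adjusted p = 0.0278) missed the threshold when any of virgin libraries 2 or 4 or pregnant libraries 4, 5 or 6 was left out, with adjusted p up to 0.0591.

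Of 22 tested genes of the transforming growth factor beta and activin pathway, 9 rose and 4 fell (median 0.16). Over all genes the shares were 14% and 13.4%. With the trend of each library with gene span taken out, 6 rose. Tgfb2 had 1248, 1481 and 1789 normalized counts in pregnant mice and 755.4, 858.2 and 965.2 in virgin mice (log2 change 0.80 ± 0.09, adjusted p = 0.000185), and Tgfb1 rose by 0.56 ± 0.11 (adjusted p = 0.00338). Neither overlapped between groups. Inhba, the activin A subunit, rose by 1.19 ± 0.31 (adjusted p = 0.0152), and Ltbp2, a matrix protein related to those that store latent ligand, by 0.96 ± 0.22. Id1, a target of the bone morphogenetic protein branch that holds back differentiation factors, had 1380, 1740 and 2123 in pregnant mice and 2328, 2796 and 2864 in virgin mice, with no overlap (log2 change -0.63 ± 0.11, adjusted p = 0.00198). Id3 fell by 0.58 ± 0.16 (adjusted p = 0.021).

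Marker lists of other cells moved beside these matrix genes. Fibro-adipogenic progenitors, the mesenchymal cells between muscle fibres, express many of the same collagens, and Col1a1, Col1a2 and Col3a1 stand on both lists. Of 13 of their markers 9 rose and none fell (median 0.71). The summed level of the markers was 116150 to 187602 normalized counts in pregnant mice and 77504 to 103457 in virgin mice. Col1a1 and Col3a1, at the counts given above, make up a large part of this sum. Of the markers of these progenitors, Gsn, Dpt, Clec3b and Serpinf1 were not called (log2 changes 0.22, 0.02, 0.46 and 0.12). Pdgfra, their defining receptor, had 483.4, 700.5 and 780.5 in pregnant mice and 247.2, 423.3 and 568.5 in virgin mice (log2 change 0.71 ± 0.20, adjusted p = 0.0186), and Pi16, a marker of a stem-like fibroblast, had 73.42, 86.69 and 247.8 against 14.27, 25.81 and 50.95. Of 9 tendon genes 7 rose and none fell (median 0.96), 4 rose without pregnant library 4, and their sum was 55226 to 132899 in pregnant mice and 43009 to 67829 in virgin mice. Col22a1, a collagen of the myotendinous junction, had 123.1, 129.9 and 900.8 in pregnant mice and 19.99, 43.54 and 68.28 in virgin mice. The highest value was that of pregnant library 4, and the log2 change was 2.25 ± 0.45 with it (adjusted p = 0.00451) and 1.81 without it. Scx, the defining transcription factor of tendon cells, had a log2 change of -0.25 and was not called. None of 9 Schwann cell genes was called. The 1 erythroid gene tested, Hbb-bt, had a log2 change of -2.01 and was not called with all libraries, but was called lower without pregnant library 4 (-2.69). Hbb-bt had 0, 5.6 and 87.7 normalized counts in pregnant mice and 22.2, 30.8 and 51 in virgin mice, so its log2 change rests on values near 0. In addition, 2 of 12 smooth muscle and pericyte genes rose, against 14% of all genes. The part of these cell types in the matrix changes was not tested.

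**Figure D3:**
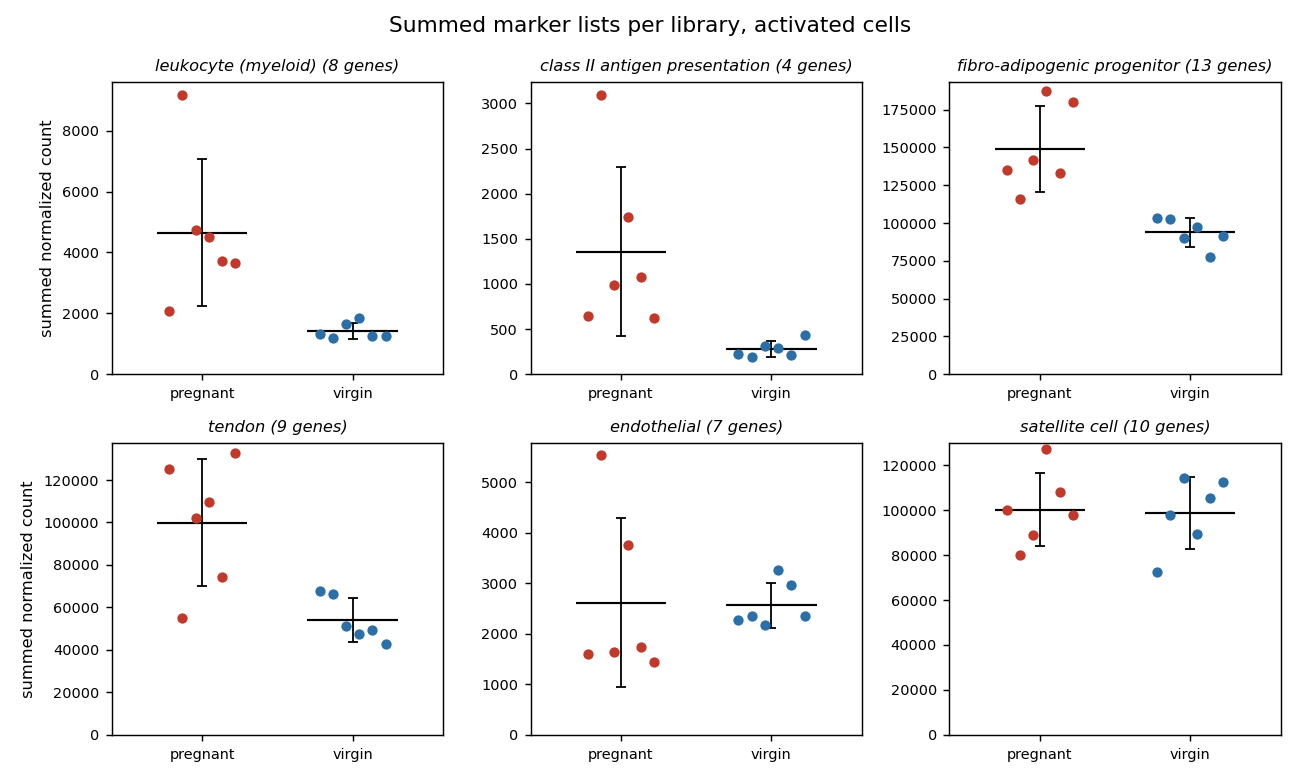
Summed normalized counts of 6 marker lists in each activated library, pregnant mice (red) left of virgin mice (blue), with the group mean and 1 SD (n = 6 each). The leukocyte, class II and fibro-adipogenic sums separate the groups, and the satellite cell and endothelial sums overlap. Pregnant library 2 is highest in the leukocyte, class II and endothelial sums. The fibro-adipogenic sum includes the collagen genes Col1a1, Col1a2 and Col3a1.

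Inflammatory genes that rose included targets of NF-kB, a family of transcription factors that Toll-like receptors and interleukin 1 switch on and that drives chemokines and adhesion molecules. Of 22 tested, 10 rose and none fell (median 0.42). Icam1, an adhesion receptor for leukocytes (ENSMUSG00000037405, chromosome 9, 21015960 to 21028797, + strand), had 1506, 1811 and 2261 normalized counts in pregnant mice and 884.5, 962.7 and 1113 in virgin mice, with no overlap (log2 change 0.88 ± 0.09, adjusted p = 8.74e-05). The chemokine gene Cxcl10 had 1028, 1407 and 3330 in pregnant mice and 615.9, 782.6 and 891.4 in virgin mice (log2 change 1.00 ± 0.21, adjusted p = 0.00572), the highest value being that of pregnant library 4. Cxcl1, which attracts neutrophils, had 10340, 12780 and 23610 in pregnant mice and 7142, 8064 and 10560 in virgin mice (log2 change 0.77 ± 0.19, adjusted p = 0.0108). Tnfaip3, which feeds back on NF-kB, had 8016, 9904 and 12920 in pregnant mice and 4934, 7203 and 7976 in virgin mice (log2 change 0.56 ± 0.14, adjusted p = 0.0108). The subunit genes Nfkb1 and Relb rose by 0.62 ± 0.11 and 0.53 ± 0.07, and Ccl2 by 0.69 ± 0.15. Tlr2, a Toll-like receptor gene picked after its values were seen (ENSMUSG00000027995, chromosome 3, 83836272 to 83841767, - strand), had 333.1, 369.7 and 412.5 in pregnant mice and 127.4, 142.8 and 176.9 in virgin mice (log2 change 1.33 ± 0.09, adjusted p = 3.59e-06). In the fit of all 4 groups Tlr2 did not pass (limma adjusted p = 0.151). Loss of the call in that fit was common, with 116 of the 185 named genes called, and is not stated for each gene.

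Promoters of these members are shown because 5 of the 6 called members that have an entry in the RefSeq promoter table (GRCm38.p6) hold a kB motif there, and 9 of 16 members of the list with an entry do. The windows run from 250 bases before to 50 bases after the start of the gene, written 5′ to 3′ on the strand of the gene. Capitals mark every match, on either strand, of GGG, any 3 bases and TTCC, or of GGANNTTCC, motif forms picked after the values were seen, which overlap each other at many sites. The first form occurs in 5.56%, the second in 4.26% and either one in 8.19% of the 32851 promoter entries of the table. These shares count entries, while a member was counted when any of its entries matched. The shares and the counts of members are therefore not alike in unit. For each gene the first entry with a match is shown. A match is a description of the letters and not a site of binding. The list was chosen for NF-kB and chemokines, so its share of matches does not bear on the change with pregnancy.
Icam1 (chr9:21015690-21015989, + strand): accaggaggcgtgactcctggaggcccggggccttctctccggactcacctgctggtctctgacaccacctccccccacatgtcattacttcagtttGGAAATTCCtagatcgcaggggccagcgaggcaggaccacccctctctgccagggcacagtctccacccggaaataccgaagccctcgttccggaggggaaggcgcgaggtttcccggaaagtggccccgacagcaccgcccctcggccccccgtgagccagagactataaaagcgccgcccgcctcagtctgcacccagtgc
Cxcl1 (chr5:90890995-90891294, + strand): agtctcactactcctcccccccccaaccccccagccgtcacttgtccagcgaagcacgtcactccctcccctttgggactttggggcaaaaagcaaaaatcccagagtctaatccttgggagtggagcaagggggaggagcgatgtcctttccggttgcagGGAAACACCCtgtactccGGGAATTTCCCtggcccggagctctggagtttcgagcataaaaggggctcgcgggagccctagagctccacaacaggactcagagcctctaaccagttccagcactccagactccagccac
Cxcl10 (chr5:92348840-92349139, - strand): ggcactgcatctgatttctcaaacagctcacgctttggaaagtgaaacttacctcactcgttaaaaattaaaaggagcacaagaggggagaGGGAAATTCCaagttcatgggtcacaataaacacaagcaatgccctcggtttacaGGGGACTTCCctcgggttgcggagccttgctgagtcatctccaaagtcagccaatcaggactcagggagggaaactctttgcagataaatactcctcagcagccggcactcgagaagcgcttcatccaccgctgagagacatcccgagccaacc
Tnfaip3 (chr10:19015361-19015660, - strand): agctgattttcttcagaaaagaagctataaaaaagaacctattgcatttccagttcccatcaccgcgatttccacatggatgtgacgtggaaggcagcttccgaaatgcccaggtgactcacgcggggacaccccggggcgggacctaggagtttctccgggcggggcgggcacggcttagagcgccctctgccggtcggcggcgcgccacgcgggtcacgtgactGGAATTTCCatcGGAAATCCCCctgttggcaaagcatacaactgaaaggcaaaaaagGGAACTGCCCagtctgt
The match of Icam1 lies 153 to 145 bases before the start, Cxcl1 and Cxcl10 have 2 separate runs of capitals each, and Tnfaip3 has 3, of which the last lies after the start. Tnfaip2 is the fifth called member with a match. Of the members that were not called, Nfkbia, Nfkbie, Il1r1 and Csf1 also hold a match.

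Genes of class II antigen presentation, through which professional immune cells show peptides to helper T cells, had the highest median change of any list. All 4 tested rose (median log2 change 2.08), but none of the 4 passed in the fit of all 4 groups (limma adjusted p = 0.0675 to 0.171). H2-Aa, a class II alpha chain (ENSMUSG00000036594, chromosome 17, 34282744 to 34287827, - strand), had 112.1, 169.6 and 529 normalized counts in pregnant mice and 26.51, 36.24 and 69.9 in virgin mice. The groups did not overlap, and the difference was 5.06-fold (log2 change 2.34 ± 0.35, adjusted p = 0.000832). Cd74, the invariant chain that escorts class II molecules, had 286.2, 520.1 and 1592 in pregnant mice and 87.68, 129.2 and 215.1 in virgin mice (log2 change 2.15 ± 0.37, adjusted p = 0.00188). H2-Eb1 rose by 2.02 ± 0.30 and H2-Ab1 by 1.80 ± 0.35. Pregnant library 2 had the highest value of H2-Aa and Cd74, and without it the changes were 2.06 and 1.85. The promoters of H2-Aa and H2-Eb1, the members with an entry, hold the Y box CTGATTGG, a textbook element of class II promoters. It is shown in capitals, was searched on both strands, and occurs in 4.1% of all promoter entries of the table. That share also counts entries, while members were counted by gene.
H2-Aa (chr17:34287774-34288073, - strand): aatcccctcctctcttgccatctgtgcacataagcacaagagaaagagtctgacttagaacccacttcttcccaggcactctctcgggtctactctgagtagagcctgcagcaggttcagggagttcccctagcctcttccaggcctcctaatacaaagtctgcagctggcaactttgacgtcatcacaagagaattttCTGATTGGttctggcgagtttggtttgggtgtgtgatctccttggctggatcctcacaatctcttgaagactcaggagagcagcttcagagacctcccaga
H2-Eb1 (chr17:34305617-34305916, + strand): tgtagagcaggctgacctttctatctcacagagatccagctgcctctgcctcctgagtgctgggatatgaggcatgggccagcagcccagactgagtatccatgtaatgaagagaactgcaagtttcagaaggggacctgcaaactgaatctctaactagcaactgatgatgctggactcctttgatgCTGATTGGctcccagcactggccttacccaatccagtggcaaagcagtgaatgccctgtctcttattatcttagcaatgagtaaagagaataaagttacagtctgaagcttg
The Y box lies 51 to 44 bases before the start in H2-Aa and 62 to 55 bases before it in H2-Eb1.

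Myeloid leukocyte markers rose beside the class II genes. All 8 tested rose (median 1.47), and none had a library at 0. Lyz2, lysozyme of macrophages and neutrophils, had 707.6, 1366 and 3406 normalized counts in pregnant mice and 341, 366 and 577.2 in virgin mice (log2 change 1.81 ± 0.28, adjusted p = 0.000959). Ctss, a protease of the class II pathway, rose by 1.93 ± 0.30, Cd14, a coreceptor for bacterial lipid, by 1.52 ± 0.19, and Lcp1, an actin bundler of leukocytes, by 1.45 ± 0.25. In the fit of all 4 groups Lyz2, Ctss and Cd14 did not pass (limma adjusted p = 0.152, 0.118 and 0.289), while Lcp1 did. The summed level of the 8 genes was 2088 to 9194 in pregnant mice and 1196 to 1829 in virgin mice, highest in pregnant library 2, and that of the 4 class II genes was 618 to 3089 and 190.9 to 438.1. For the defining leukocyte genes Ptprc, Csf1r, Adgre1 and Itgam the table gives no value. Other genes of immune cells stood among the largest rises: Syk, a kinase downstream of immune receptors (log2 change 2.04 ± 0.29), Cytip (1.72 ± 0.31), Pla2g7 (1.71 ± 0.24), and Plek, pleckstrin of platelets and leukocytes (1.66 ± 0.26). Il1b, the interleukin 1 beta gene on the NF-kB list, rose by 1.58 ± 0.24 (108.1, 204.9 and 359 in pregnant mice, 51.07, 67.66 and 95.54 in virgin mice). Syk, Pla2g7 and Il1b did not pass in the fit of all 4 groups (limma adjusted p = 0.0848, 0.0963 and 0.178), while Cytip and Plek did. The part of leukocytes in these rises and in those of the NF-kB list was not tested. Of 7 endothelial markers none was called (median -0.18), and their sum was 1434 to 5545 in pregnant mice, highest in library 2, and 2178 to 3259 in virgin mice.

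Interferon response genes rose in smaller number, 7 of 29 with none lower (median 0.23), against 14% of all genes. Without pregnant library 4, 6 rose and 1 fell. Stat2, a signal transducer of type I interferon, had 752.2, 806 and 1042 normalized counts in pregnant mice and 484.2, 498.6 and 663.1 in virgin mice (log2 change 0.63 ± 0.10, adjusted p = 0.00142). H2-K1, a class I molecule, had 5121, 5485 and 10140 in pregnant mice and 3193, 4372 and 4721 in virgin mice, with the highest value in pregnant library 4 and the lowest in virgin library 1 (log2 change 0.54 ± 0.15, adjusted p = 0.0198). Of 14 genes of complement and the acute phase response 4 rose and none fell, and 1 fell without virgin library 1. Il6st, the shared receptor subunit of the interleukin 6 family, rose by 0.36 ± 0.09 (adjusted p = 0.011), and Osmr, the oncostatin M receptor subunit that pairs with it, by 0.51 ± 0.11 (adjusted p = 0.00561).

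The myogenic regulators themselves did not pass the test. Pax7 (ENSMUSG00000028736, chromosome 4, 139737062 to 139833528, - strand) had 5654, 6751 and 8159 normalized counts in pregnant mice and 4555, 6925 and 7991 in virgin mice (log2 change 0.06 ± 0.13, adjusted p = 0.77). Myf5 had a log2 change of 0.03 ± 0.13 (adjusted p = 0.875), and Myod1, the determination factor (chromosome 7, 46376474 to 46379092), one of 0.09 ± 0.12 (adjusted p = 0.599), with 7661, 10450 and 13310 in pregnant mice and 8680, 10040 and 10770 in virgin mice. Myog, which drives differentiation, had 2300, 6280 and 9150 in pregnant mice and 7561, 8621 and 9679 in virgin mice. Pregnant libraries 1 and 3 were the lowest, the groups overlapped, and the log2 change of -0.64 ± 0.27 did not pass the test (adjusted p = 0.0934). Without pregnant library 4 it was -0.78 (adjusted p = 0.0476). Mymk, the fusion protein myomaker, which the table lists under its older symbol Tmem8c, had a log2 change of -0.69 ± 0.32 (adjusted p = 0.122). Over the 20 tested genes of commitment and fusion 1 rose and 1 fell (3 fell without pregnant library 4), and of 21 sarcomere genes 1 fell. Itga7 and Cdh15 had no value in the table.

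Notch signalling keeps satellite cells undifferentiated. Of 20 tested genes of its list 3 rose and 3 fell (median 0.06), shares near the 14% and 13.4% of all genes. The falls were transcription factor genes of the Hes and Hey families. Hes1 (ENSMUSG00000022528, chromosome 16, 30064384 to 30067796, + strand) had 387.3, 522.4 and 605.1 normalized counts in pregnant mice and 753.1, 914.6 and 1118 in virgin mice, with no overlap (log2 change -0.87 ± 0.12, adjusted p = 0.000521). Heyl had 3323, 4145 and 5113 in pregnant mice and 3939, 6704 and 7883 in virgin mice, where virgin library 1 was the low one (log2 change -0.60 ± 0.16, adjusted p = 0.0143). Hes6 fell by 0.65 ± 0.13 (adjusted p = 0.00388). The ligand gene Jag1 rose, at 710.1, 821.2 and 944.9 in pregnant mice and 491.1, 548 and 648.8 in virgin mice (log2 change 0.59 ± 0.09, adjusted p = 0.000641), while the receptor genes Notch1 and Notch3 were not called (log2 changes 0.23 and 0.33, adjusted p = 0.163 and 0.0992). Of 22 Wnt pathway genes 3 rose and 1 fell, against 14% and 13.4% of all genes, and 6 rose without virgin library 1. The fall was Wnt4, a ligand of satellite cell quiescence, with 132.2, 256.3 and 293.6 in pregnant mice and 258.2, 660.2 and 878.1 in virgin mice (log2 change -1.32 ± 0.29, adjusted p = 0.00637). Dkk3, a secreted protein related to Wnt inhibitors, rose by 1.17 ± 0.22, with 85.01, 114.4 and 158.4 in pregnant mice and 34.05, 44.13 and 85.62 in virgin mice.

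Quiescence genes had no common direction, with 5 rises and 4 falls among 29 (median -0.04), against 14% and 13.4% of all genes. Without pregnant library 4 and virgin library 1 together, 8 fell. The rises included the niche collagens Col5a1 and Col6a1 and the laminin Lama2. The falls were Hes1, Heyl, Cd34 and Btg2. Btg2, an antiproliferative early response gene, had 5474, 6816 and 8994 normalized counts in pregnant mice and 5119, 16150 and 19560 in virgin mice. Virgin library 1 was the low one, and the log2 change was -0.97 ± 0.27 with it (adjusted p = 0.0179) and -1.25 without it. Cd34, a sialomucin of quiescent cells, had 2016, 2462 and 3552 in pregnant mice and 2469, 3744 and 5477 in virgin mice (log2 change -0.57 ± 0.17, adjusted p = 0.028). The adjusted p of Cd34 reached up to 0.05755 as single libraries were left out, past the threshold for each of virgin libraries 3, 5 and 6 and pregnant libraries 3, 5 and 6.

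Early response genes, which also rise during cell isolation, depended on virgin library 1. Of 30 tested, 5 rose and 4 fell with all libraries, 4 rose and 12 fell without virgin library 1, and 2 rose and 5 fell without pregnant library 4. Fos had 19670, 24930 and 35150 normalized counts in pregnant mice and 14330, 33860 and 45460 in virgin mice, the lowest in virgin library 1. Its log2 change was -0.32 ± 0.24 with that library (adjusted p = 0.325) and -0.55 without it (adjusted p = 0.0203). Genes of the glucocorticoid response gave 1 rise and 3 falls of 21 with all libraries, and 1 rise and 6 falls without virgin library 1. Without virgin library 1 and pregnant library 4 together they gave 1 rise and 10 falls. Ddit4, an inhibitor of mTOR signalling that stress hormones and low oxygen induce (ENSMUSG00000020108, chromosome 10, 59949675 to 59951770, - strand), kept its fall with each single library left out (log2 change -1.12 to -0.95). It had 778.7, 965.2 and 1014 in pregnant mice and 1203, 1977 and 2226 in virgin mice, with no overlap, and fell by 1.00 ± 0.13 on the log2 scale (adjusted p = 0.000382). Klf15, a metabolic transcription factor, fell by 1.11 ± 0.29 (adjusted p = 0.0149). The receptor gene Nr3c1 rose by 0.33 ± 0.09 (adjusted p = 0.0143). Fkbp5 and Per1, both textbook targets, were not called with all libraries (log2 changes -0.11 and -0.19). Without pregnant library 4 and virgin library 1 together, Per1 was called lower (log2 change -0.38, limma adjusted p = 0.0114).

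Calls among cell cycle genes are set against 14% higher and 13.4% lower over all genes. Of 18 S phase genes 2 fell and none rose, with a median log2 change of -0.33. That share of falls was near the share over all genes. Without virgin library 1, 1 fell, and the median was -0.12 without it and pregnant library 4. Ccne1, cyclin E1, had 378, 654 and 699.2 normalized counts in pregnant mice and 689.1, 920.3 and 1254 in virgin mice (log2 change -0.62 ± 0.16, adjusted p = 0.0159), lowest in pregnant library 4. Of 18 genes of G2 and M phase 2 rose and 1 fell (median -0.05), none was called without pregnant library 4, and 4 rose without virgin library 1. Mki67, a marker of dividing cells, had 4888, 6405 and 8980 in pregnant mice and 3799, 4647 and 6922 in virgin mice. It was not called (log2 change 0.39 ± 0.15, adjusted p = 0.0662), and passed the threshold without virgin library 1 (0.48, adjusted p = 0.0203) or pregnant library 5 (0.47, adjusted p = 0.0339). Top2a, Ccnd1 and Cdkn1c were not called (log2 changes 0.16, -0.12 and -0.29). Cdkn1a, the p21 inhibitor, had 4100, 4486 and 4897 in pregnant mice and 4601, 5319 and 5804 in virgin mice (log2 change -0.23 ± 0.07, adjusted p = 0.028), and missed the threshold without virgin library 2 or 3 or pregnant library 2, 3 or 6, with adjusted p up to 0.0618. Among 19 genes of the p53 pathway and cell cycle inhibitors 1 rose and 5 fell (median -0.15).

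Genes of DNA methylation gave 5 rises and 1 fall of 19, against 14% and 13.4% of all genes. Tet2, which oxidizes methylated cytosine, had 1843, 2268 and 3073 normalized counts in pregnant mice and 954.4, 1412 and 1774 in virgin mice, with no overlap (log2 change 0.78 ± 0.15, adjusted p = 0.00311). Dnmt1, the maintenance methyltransferase, and Dnmt3a, which sets new marks, were not called (log2 changes -0.23 and 0.17, adjusted p = 0.292 and 0.136). Without pregnant library 4 the list had 3 rises. Of 15 circadian clock genes 5 rose and none fell (median 0.17), against 14% and 13.4% of all genes, and 2 fell without virgin library 1. Per2, a repressor of the clock, had 913.9, 1176 and 1436 in pregnant mice and 461.7, 667.1 and 1008 in virgin mice (log2 change 0.77 ± 0.15, adjusted p = 0.00445), and the nuclear receptor gene Rora rose by 0.79 ± 0.16 (adjusted p = 0.00468). The time of day of collection is not given. Of 20 genes of the unfolded protein response 5 rose and none fell, against 14% and 13.4% of all genes. Without virgin library 1, 1 fell. Among the rises was Ern1, the sensor that splices Xbp1 (log2 change 0.50 ± 0.08, adjusted p = 0.000959).

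Lists of mitochondrial, ribosomal and proteasome genes held falls with small changes and no rise. Of 68 nuclear genes of the respiratory chain 50 fell and none rose (median log2 change -0.26), against 13.4% of all genes. Without pregnant library 4, 35 fell, and 34 fell without it and virgin library 1. Ndufv1, a core subunit of complex I, had 2080, 2108 and 2271 normalized counts in pregnant mice and 2407, 2660 and 3044 in virgin mice, with no overlap (log2 change -0.32 ± 0.06, adjusted p = 0.00258). Ndufc2 fell by 0.35 ± 0.07 and Ndufs7 by 0.48 ± 0.09. None of 8 genes of the mitochondrial genome was called (median -0.04). Of 61 mitochondrial ribosomal proteins 44 fell and none rose (median -0.32), while 38 fell without pregnant library 4 and 34 without it and virgin library 1. Mrpl17 had 869.1, 919.4 and 959.3 in pregnant mice and 1124, 1164 and 1451 in virgin mice (log2 change -0.41 ± 0.07, adjusted p = 0.00146), and Mrps12 fell by 0.48 ± 0.09.

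Cytosolic ribosomal protein genes had negative log2 changes throughout, between -0.40 and -0.13, and 29 of 70 were called lower. That count was 65 without virgin library 1, and 4 after the trend of each library with gene span had been taken out. Rps2 had 16930, 17880 and 18770 normalized counts in pregnant mice and 21230, 22200 and 25770 in virgin mice (log2 change -0.34 ± 0.07, adjusted p = 0.00517). Many ribosomal proteins have processed pseudogenes that share reads with them, so single members are uncertain. Of 34 proteasome subunits 21 fell and none rose (median -0.24), and 11 fell without pregnant library 4. Psmd7, a subunit of the regulatory cap, had 1729, 2146 and 2301 in pregnant mice and 2383, 2519 and 3156 in virgin mice (log2 change -0.35 ± 0.09, adjusted p = 0.0132). Of 23 ribosome biogenesis factors 8 fell and none rose, and 5 fell without virgin library 1. Of 19 heat shock and chaperone genes 6 fell and none rose, and 1 rose and 4 fell without virgin library 1 (1 and 3 without pregnant library 4 as well). In addition, 2 of 5 genes of the replication-dependent histone list fell, Hist1h2bc and Hist2h2be (log2 changes -0.55 and -0.63). Most messages of such histone genes carry no poly-A tail, and these libraries were made with a poly-A kit, so the list cannot show the level of most of them. Hspb8, a small heat shock protein of muscle, fell most among the chaperones, with 239.9, 283.2 and 428.4 in pregnant mice against 439.5, 473.8 and 691.3 in virgin mice (log2 change -0.82 ± 0.16, adjusted p = 0.00381).

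Of 18 glycolytic genes 10 fell and none rose (median -0.31), against 13.4% lower of all genes, and 6 fell without pregnant library 4. Slc16a3, the lactate exporter MCT4, had 309.3, 394.1 and 423.9 normalized counts in pregnant mice and 532.8, 554.3 and 655.9 in virgin mice, with no overlap (log2 change -0.61 ± 0.09, adjusted p = 0.00054). Pgk1, phosphoglycerate kinase, had 3052, 4147 and 4532 in pregnant mice and 4566, 5291 and 7190 in virgin mice (log2 change -0.46 ± 0.12, adjusted p = 0.016). Of 18 genes of cholesterol synthesis 8 fell and none rose (median -0.31), and 6 fell without pregnant library 4 and virgin library 1. Idi1, an isomerase of the isoprenoid pathway, had 917.1, 1330 and 1752 in pregnant mice and 1837, 2072 and 2173 in virgin mice, with no overlap (log2 change -0.64 ± 0.12, adjusted p = 0.00266). Fatty acid metabolism gave 1 rise and 1 fall of 24, and neither without pregnant library 4 or without virgin library 1. Of 26 oxidative stress genes under NRF2, 2 rose and 4 fell, against 14% and 13.4% of all genes. Without pregnant library 4, 4 rose. Slc7a11, the cystine transporter, rose by 1.07 ± 0.20 and Hmox1, haem oxygenase, by 0.66 ± 0.12. Gstp1, a glutathione transferase, fell by 0.43 ± 0.09. Of 24 vascular and trophic factors 3 rose and 1 fell, against 14% and 13.4% of all genes, and Vegfa had a log2 change of -0.01.

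Other falls with large log2 changes were single genes of varied roles. Asb4, a substrate adaptor of ubiquitin ligases, had 20.61, 28.81 and 36.46 normalized counts in pregnant mice and 42.99, 80.66 and 124.1 in virgin mice (log2 change -1.34 ± 0.26, adjusted p = 0.00333). Nthl1, a DNA glycosylase that removes oxidized bases, had 31.88, 37.74 and 50.99 in pregnant mice and 76.59, 91.2 and 106.6 in virgin mice (log2 change -1.20 ± 0.14, adjusted p = 0.000173). Cav3, the caveolin of muscle, fell by 0.72 ± 0.16, and Rpp38 and Rpp25l, subunits of the RNase P and MRP family, fell by 0.72 ± 0.11 and 0.68 ± 0.10. All of these had groups that did not overlap. In the fit of all 4 groups Asb4, Nthl1 and Rpp25l did not pass (limma adjusted p = 0.1028, 0.4325 and 0.6881). Cav3 did not pass there either, while Rpp38 did.

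**Figure D4:**
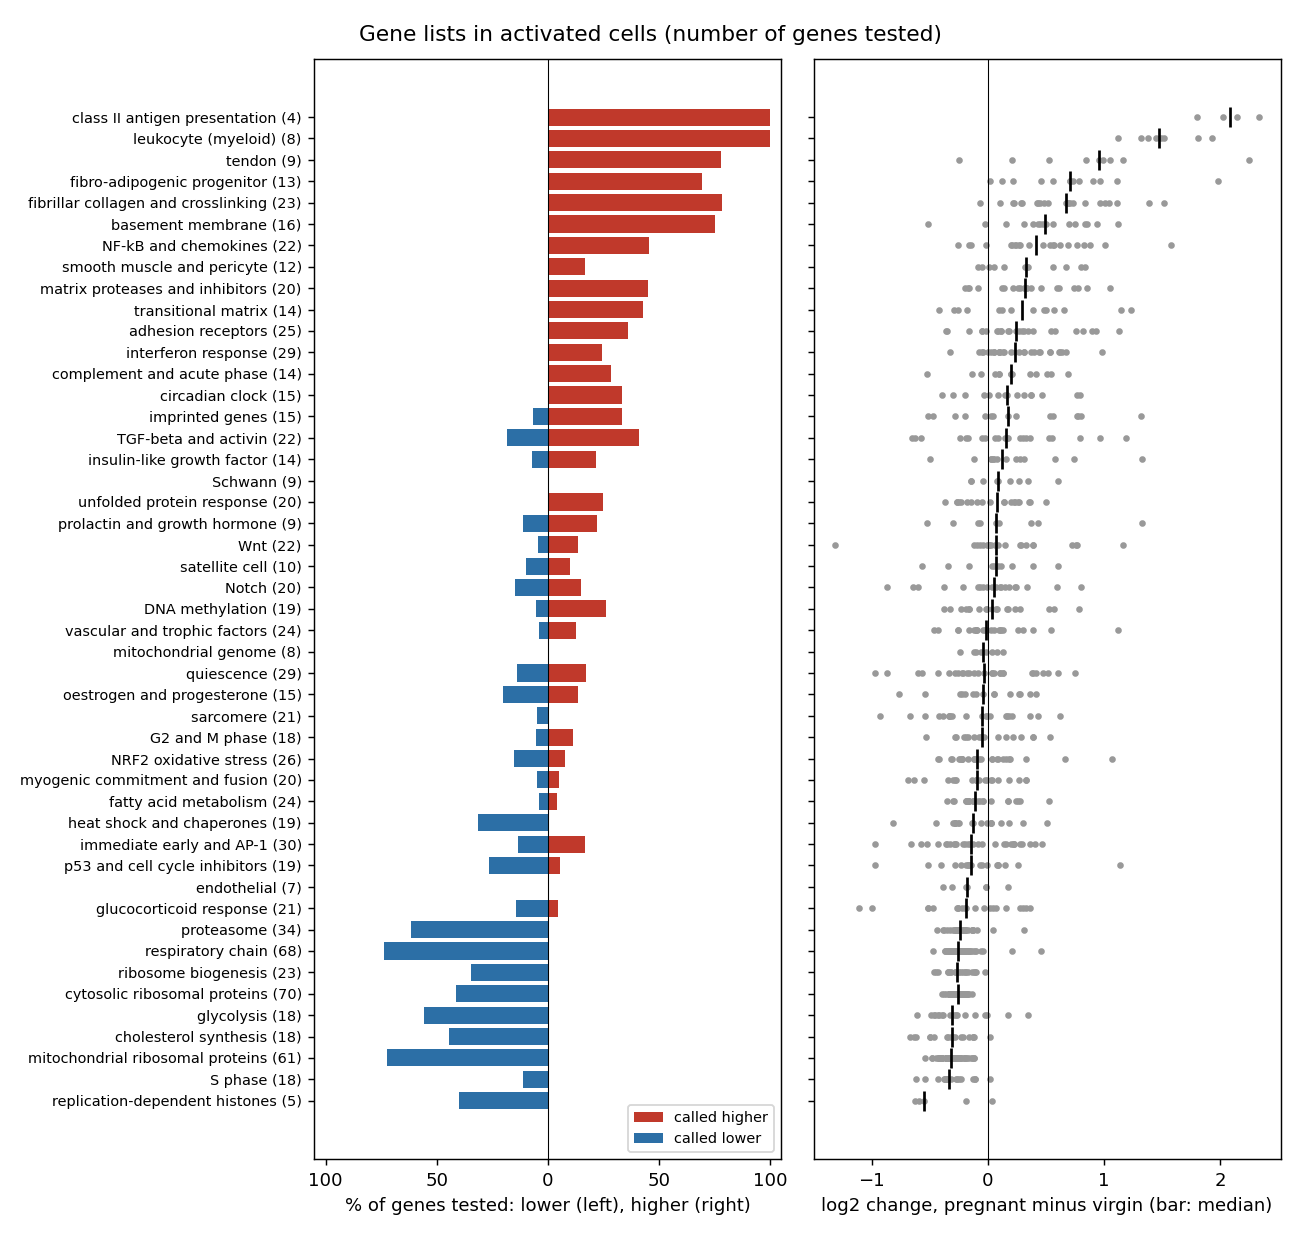
Gene lists with at least 4 tested genes. On the left, the percentage of tested genes called higher (red) and lower (blue) in pregnant mice; on the right, the log2 change (pregnant minus virgin) of each gene in grey and the list median as a black bar. The medians of the matrix, leukocyte and NF-kB lists lie to the right of 0 and those of the ribosomal, respiratory and proteasome lists to the left.

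Direction of change went with gene span. Genes called higher had a median genomic span of 49.9 kb and genes called lower one of 14 kb, against 27.4 kb over all genes tested. In the tenth of genes with the shortest span 6.3% were called higher and 28.8% lower, and in the tenth with the longest span 24.9% were called higher and 4.9% lower. Across genes, which are not independent replicates, the log2 change and the span had a Spearman rho of 0.302. Cytosolic ribosomal protein genes had a median span of 3.2 kb, respiratory chain genes 7.5 kb, and basement membrane genes 76.4 kb. After the trend of each library with span had been taken out, 1134 genes were higher and 1377 lower, of which 2056 were among the original calls. The fibrillar collagen list then had 15 rises and the respiratory chain list 29 falls. The part of gene span, or of an RNA property that goes with it, was not tested further.

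**Figure D5:**
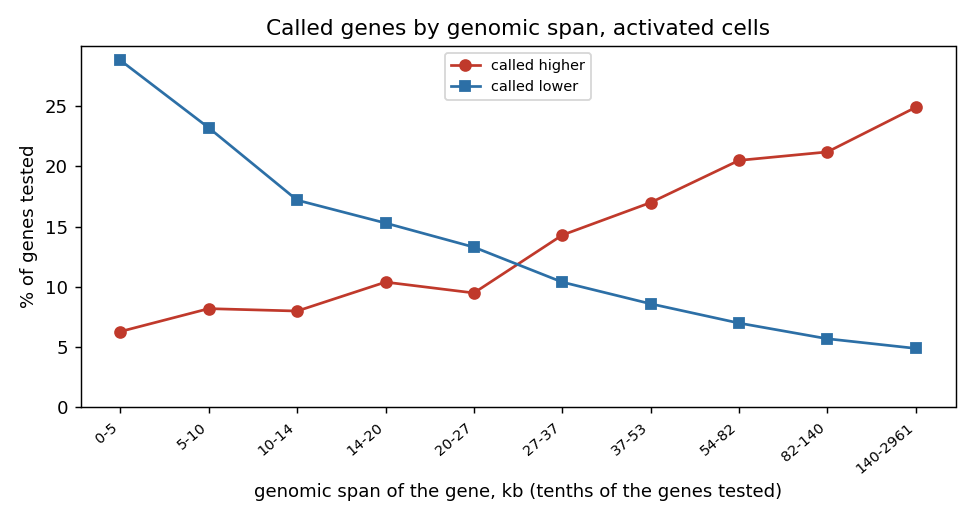
Percentage of tested genes called higher (red circles) and lower (blue squares) in pregnant mice in 10 equal bins of the genes by genomic span in kb. The share called higher goes up to 24.9% and the share called lower down to 4.9% in the tenth with the longest genes.

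Non-activated cells allow the pregnancy difference to be set against that before injury, with 3 libraries a group and another kit. There, 23.1% of 10751 genes differed between pregnant and virgin mice (1210 higher, 1275 lower) in a limma fit of all 4 groups. In that same fit, 582 of 10499 genes differed in activated cells (485 higher, 97 lower). The 27.5% given above for activated cells came from the fit of the 12 activated libraries, so it cannot be set beside the 23.1%. The interaction term, the difference of activated cells minus that of non-activated cells, passed the test for 1620 genes (15.1%). It passed for 584 of the 2883 genes called in activated cells. Those genes were picked on the activated difference, which is part of the term, so their share cannot be set against the 15.1%. The interaction term passed for 12 genes when each group was given its own spread, and none of the interactions named below passed under that setting. Igf1 had a log2 change of 1.32 in activated and 0.74 in non-activated cells (interaction adjusted p = 0.211), and Hes1 one of -0.87 and -0.74 (interaction adjusted p = 0.79). Myod1 had 0.09 in activated and 1.92 in non-activated cells (interaction log2 change -1.83, adjusted p = 2.3e-05), Spp1 -0.25 and 5.53 (interaction -5.79, adjusted p = 0.00675) and Tnc 0.12 and 3.00 (interaction -2.87, adjusted p = 0.000157). Fn1 had 1.24 and -0.69 (interaction 1.93, adjusted p = 0.0172), Plek 1.66 and -2.10 (interaction 3.76, adjusted p = 0.000285), and H2-Ab1 1.80 and -3.54 (interaction 5.34, adjusted p = 0.00225).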

How the data were processed

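RNA was sequenced from satellite cells sorted from hindlimb muscle, with 6 libraries of activated cells of pregnant mice, 6 of activated cells of virgin mice, and 3 non-activated libraries of each kind. The submitters' processing notes name cutadapt 1.12, TopHat2 2.0.14, HTSeq 0.6.0, DESeq2 1.22.1 and the build GRCm38; their order and settings are not given in the sources used here. The deposited table holds, per gene and library, a raw count and a count that the authors normalized, and a log2 fold change and p-value for each of the authors' comparisons, per the file headers. Genes without values are marked with a question mark (36937 of 47729). Values were given for protein-coding genes alone (10792 of 22048), and 6 value columns of other samples were not used. Whether counting used strand is not given, so overlapping genes cannot be told apart.

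Tests used limma 3.58.1 in R 4.3.3 on log2(normalized count + 1), with a trend in the prior variance, for genes with at least 10 normalized counts in at least 6 of the 12 libraries, and Benjamini-Hochberg adjustment at 0.05. A fold change on this scale understates the change of low genes. The raw counts were whole for every gene with values; count models were not run on them. The interaction was fitted on all 18 libraries with genes at 10 in at least 3. Fixed single genes also had a two-sided exact permutation test: of 34 names 29 were tested, 10 were called by limma, and 12 had an exact p under 0.05. The script for the fits was tested on simulated data. Groups came from the sample labels, and virgin from the series' design text. Tables and figures were made with Python 3.11.15, pandas 2.3.3 and matplotlib 3.10.9.

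The genes and gene lists were chosen with earlier results of these data known. Named genes are the 12 largest changes in each direction among called genes without overlap and with a mean of at least 50, up to 4 members of each list by adjusted p, members needed to describe a list, and the fixed names; 2 genes are not reported here. Lists are described by counts and medians without a test of the list. Alternatives covered the pseudocount, the filter, scaling, weights, the spread, a replicate block, a fit of all 4 groups, a test beyond 1.2-fold and leaving out each library. Leaving out pregnant library 4 with virgin library 1, and taking out the trend with span, were added after the data were seen. Replicate numbers did not pair the libraries: the correlation of same-numbered deviations was between -0.204 and 0.162.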

Additional observations from a re-analysis of the deposited data

Results flagged for a closer look

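Among 414 sets of 6 libraries of named genes, 35 had a single library far from the other 5 on the log2 scale by Dixon's criterion, which chance meets in about 1 set in 20.

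Pregnant library 4 stood apart most often. It was high for Col22a1 (900.8 normalized counts, the others 123.1 to 241.7), Pdgfrb (1386, the others 945.3 to 1045), Adamts1 (14480, the others 9423 to 11020), H2-K1 (10140, the others 5121 to 5904) and Cxcl10 (3330, the others 1028 to 1463). It was low for Tnc (4020, the others 6371 to 8234), for the S phase genes Ccne1 (378, the others 644.4 to 699.2) and Rrm2 (2639, the others 4443 to 5088), and for Pgrmc2 (1038, the others 1121 to 1152). It was also low for Pgk1 (3052) and Ndufs7 (772.3), the proteasome genes Psma7 (1447), Psmb5 (806.7) and Psma1 (1420), and the ribosome genes Rpl7l1 (1614), Nop16 (819.4), Wdr12 (496.5) and Nop2 (1227).

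Virgin library 1 was low for the early response genes Fos (14330, the others 30060 to 45460), Junb (15980, the others 28190 to 37140), Zfp36 (9431, the others 18970 to 25430) and Btg2 (5119, the others 12770 to 19560), and for Heyl (3939) and H2-K1 (3193). It was high for Hmox1 (1237, the others 845.7 to 946.8) and Sgcd (23.57, the others 12.37 to 15.13).

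Virgin library 2 was low for Il6ra (121), Ern1 (529.9) and Eif2ak3 (295.6) and high for Pgrmc2 (1407), and virgin library 4 was high for Postn (1778, the others 438.2 to 705). Pregnant library 3 was high for Bola1 (143.9) and Nrip1 (1530), pregnant library 6 low for Il6ra (178.7), and pregnant library 1 low for Nr1d1 (2542). What set these libraries apart was not tested.

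Core genes were the fixed names and the 12 largest changes in each direction. For 14 of the 50 tested, the pregnancy difference of activated cells was not that of non-activated cells by limma's interaction term. The largest changes were picked on the activated difference, which is part of that term. The share among core genes therefore cannot be set against the 15.1% of all genes tested. The interaction log2 change was positive for H2-Ab1 (5.34), Col22a1 (4.48), H2-Aa (3.97), Plek (3.76), Cytip (3.19), Fn1 (1.93), Dnmt3a (1.21) and Pax7 (0.69). It was negative for Spp1 (-5.79), Hspb8 (-5.25), Tnc (-2.87), E130012A19Rik (-2.11), Myod1 (-1.83) and Cdkn1a (-0.96). None of the 14 passed when each group had its own spread, H2-Aa missed the threshold in 18 and Pax7 in 13 of 22 alternatives, and the activated and non-activated libraries were made with different kits.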

How the results depend on the processing

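With all libraries 1473 genes were higher and 1410 lower. A fit of all 4 groups gave 485 and 97 and a test beyond 1.2-fold gave 199 and 17, with 83.3% and 92.1% of calls higher against 51.1%; the cause was not tested for the first, while the second asks for a larger change. The replicate block gave 1254 higher and 923 lower; the numbers did not pair the libraries, and 1 of 6 pregnant libraries correlated best with its own number. Leaving out single libraries gave 1098 to 1496 higher and 861 to 1409 lower, with both lowest counts without virgin library 2. The other alternatives stayed within 1.5 times. The interaction count of 1620 was 12 with the spread by group, 1204 with the replicate block, and 1295 to 2302 with single libraries left out. Of 185 named genes called, 30 kept the call under every alternative and 149 under all but the 4-group fit and the 1.2-fold test. The 4-group fit lost 116 of the calls, the 1.2-fold test lost 132, and 27 were lost with a single library left out. Changes of sign arose in genes that were not called. With single libraries left out, Pax7 lay between -0.046 (without virgin 1) and 0.116, Myf5 between -0.061 (without virgin 1; also -0.0072 without virgin 4 and -0.039 without pregnant 4) and 0.0982, Ccnd1 between -0.193 and 0.0127 (without pregnant 4; 0.0045 without virgin 1), Cdkn1c between -0.457 and 0.0070 (without pregnant 3), and Igf2 between -0.068 (without pregnant 4; -0.041 without pregnant 6) and 0.158. Without pregnant library 4 and virgin library 1 together, Pax7 was -0.10, Myf5 -0.13, Ccnd1 0.14 and Igf2 -0.11. With the span trend taken out, Pax7 was -0.060 and Ghr -0.081. Smad3 and Nr3c1 lost their calls there (adjusted p = 0.0558 and 0.0548), and Id3 lost its call under the block (adjusted p = 0.0503). Genes under the filter of 10 normalized counts were not tested, so differences among them were not detectable here.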
